A study of Mus musculus with 16 samples.

Results

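The VEGF ligands and receptors were taken as 9 genes by symbol, out of 54532 genes in each table of values. They are 3 receptor tyrosine kinases (Kdr, Flt1 and Flt4), 2 neuropilin co-receptors (Nrp1 and Nrp2) and 4 ligands (Vegfa, Vegfb, Vegfc and Pgf), and all 9 were found once in both tables and passed the filter on low values. RNA was sequenced in bulk from pulmonary endothelial cells (ECs), which had been separated from digested mouse lung with magnetic beads as CD31+ CD45- cells. Male C57/BL6J WT mice, 8 weeks of age, received saline (saline group, n = 4) or 10 mg/kg lipopolysaccharide (LPS group, n = 6) intratracheally. Fgfr1 loxP/loxP mice (n = 3) and Fgfr1 iΔEC/iΔEC mice (n = 3), which also carry VE-cadherin-CreERT2 and so lose Fgfr1 in cells that use the VE-cadherin promoter, received tamoxifen and then 2 mg/kg LPS. This second experiment therefore had no saline arm. Cells were collected 24 h after LPS or saline in all 4 groups. Reads on genes numbered 13478726 to 18807007 per library in the saline group, 17840221 to 19043015 in the LPS group, 15969575 to 17002788 in Fgfr1 loxP/loxP mice and 16642177 to 16943522 in Fgfr1 iΔEC/iΔEC mice. The labels do not state that each library is a separate mouse, so the p-values measure the spread between these libraries, which may be technical.

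VEGF ligands are secreted dimers that bind receptor tyrosine kinases on the endothelial surface. VEGFR2, the product of Kdr, carries most of the mitogenic, survival and permeability signal of VEGF-A, while VEGFR1, the product of Flt1, binds VEGF-A, VEGF-B and PlGF with high affinity and signals weakly, so that it also works as a decoy. VEGFR3, the product of Flt4, is the receptor of VEGF-C and VEGF-D and is best known from lymphatic endothelium, although capillary endothelium of the lung uses it too. The neuropilins bind VEGF isoforms and class 3 semaphorins and present ligand to the receptors. In the lung, the alveolar epithelium is the best known source of VEGF-A, and the capillary endothelium opposite it is rich in VEGFR2.

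Values are FPKM, fragments per kilobase of gene length and per unit of sequencing depth, so levels of different genes can be compared within a table. A gene is said to have risen or fallen where limma on log2(FPKM + 1) gave a p of no more than 0.05 after Benjamini-Hochberg adjustment across every gene in the fit, and it is called higher or lower where the log2 fold change was also at least 1 in size. The tables of the 2 experiments had been normalized separately, so groups were tested only within a table. Saline library 1 stood apart from the rest of its group, with a summed level of 5303 FPKM for 10 endothelial markers against 3018 to 3841 FPKM and of 1363 FPKM for 7 neutrophil markers against 68.8 to 304 FPKM in saline libraries 2 to 4. Without it the log2 fold change in LPS over saline was -1.92 for Kdr, -0.97 for Flt1, -1.10 for Flt4, -1.52 for Nrp1, -1.62 for Vegfa and 1.55 for Pgf, and these 6 members passed the test as they did with it.

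Kdr lies on mouse chromosome 5 at 75932827 to 75978458 on the minus strand (GRCm38), Flt1 on chromosome 5 at 147561604 to 147726011 on the minus strand and Flt4 on chromosome 11 at 49609263 to 49652739 on the plus strand. Nrp1 is on chromosome 8 at 128358604 to 128503363 and Nrp2 on chromosome 1 at 62703285 to 62818695, both on the plus strand. Vegfa is on chromosome 17 at 46016993 to 46032369, Vegfb on chromosome 19 at 6982473 to 6987651 and Pgf on chromosome 12 at 85166635 to 85177790, all on the minus strand, and Vegfc is on chromosome 8 at 54077606 to 54187096 on the plus strand. All 9 are protein coding. Nrp2 overlaps an antisense gene, Gm29083, and the sources used here do not say whether counting used strand, so reads of that pair cannot be told apart. Nrp2 also overlaps Gm37121 and Nrp1 overlaps Mir1903, both on the same strand, where strand would not separate the reads.

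The 250 bases before the annotated start of Kdr, Flt1 and Vegfa are printed because these 3 genes, the chief signalling receptor, the decoy receptor and the chief ligand, fell together in the LPS group. They are RefSeq sequences on GRCm38.p6, read along the minus strand from 5′ to 3′ up to the base before the start site. They lie at chr5:75978456-75978705, chr5:147726012-147726261 and chr17:46032378-46032627. Capitals mark matches on either strand to GCGTG or ACGTG, the core letters to which hypoxia-inducible factors bind, and to CCGGAA, the core of an ETS site.
Kdr: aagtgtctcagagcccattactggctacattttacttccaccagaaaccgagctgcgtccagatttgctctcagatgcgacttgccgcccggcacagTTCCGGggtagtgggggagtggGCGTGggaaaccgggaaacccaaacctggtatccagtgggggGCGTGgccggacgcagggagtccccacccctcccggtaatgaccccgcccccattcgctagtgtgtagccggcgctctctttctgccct
Flt1: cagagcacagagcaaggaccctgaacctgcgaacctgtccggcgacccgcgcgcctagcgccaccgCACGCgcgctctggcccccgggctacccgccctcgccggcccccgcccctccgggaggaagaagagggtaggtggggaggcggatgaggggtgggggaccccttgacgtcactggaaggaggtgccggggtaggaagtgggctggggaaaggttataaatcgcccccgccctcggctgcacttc
Vegfa: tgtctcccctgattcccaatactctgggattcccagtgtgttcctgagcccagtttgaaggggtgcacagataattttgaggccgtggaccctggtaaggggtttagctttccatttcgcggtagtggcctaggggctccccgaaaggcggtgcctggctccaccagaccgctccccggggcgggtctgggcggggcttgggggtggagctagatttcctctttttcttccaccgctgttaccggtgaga
Motifs were counted in windows that also took in 50 bases after the start, 300 bases in all, and the 9 members gave 11 windows, since Vegfa and Pgf have more than 1 start site. GCGTG was found in 7 of these 11 windows, for Vegfa at its downstream start alone, and in 32.4% of 32851 RefSeq promoters. Kdr was the only member with CCGGAA, which 14.9% of promoters held, and Vegfa the only one with ACGTG, at its downstream start, against 19.6% of promoters. GGGCGG, the letters of a GC box, was found in 10 of 11 windows and in 35.7% of promoters. TGANTCA, the AP-1 site, was found in 0 of 11 windows and in 7.81% of promoters. None of these motifs separated the members that fell from the others, since Flt4, which fell, and Vegfc, which did not pass the test, both held GGGCGG alone of the motifs searched.

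Transcripts of all 3 VEGF receptors, of Nrp1 and of Vegfa fell in the EC fraction of the LPS group, and those of Pgf rose. Their mean FPKM fell by 54.0% (Flt1) to 69.1% (Kdr), and each was lower in all 6 LPS libraries than in any saline library. Over all 14893 genes tested, 23.7% fell and 29.5% rose, 6.79% were called lower and 11.9% called higher. All 5 members that fell were also called lower, and Pgf was called higher. The 6 LPS libraries all lay under the lowest saline library for 16.7% of all genes and over the highest for 22.7%. Nrp2, Vegfb and Vegfc did not pass the test. In bulk samples, fewer cells of a type and less RNA per cell cannot be told apart, so these are changes in the share of a transcript in the isolated fraction.

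**Figure D1:**
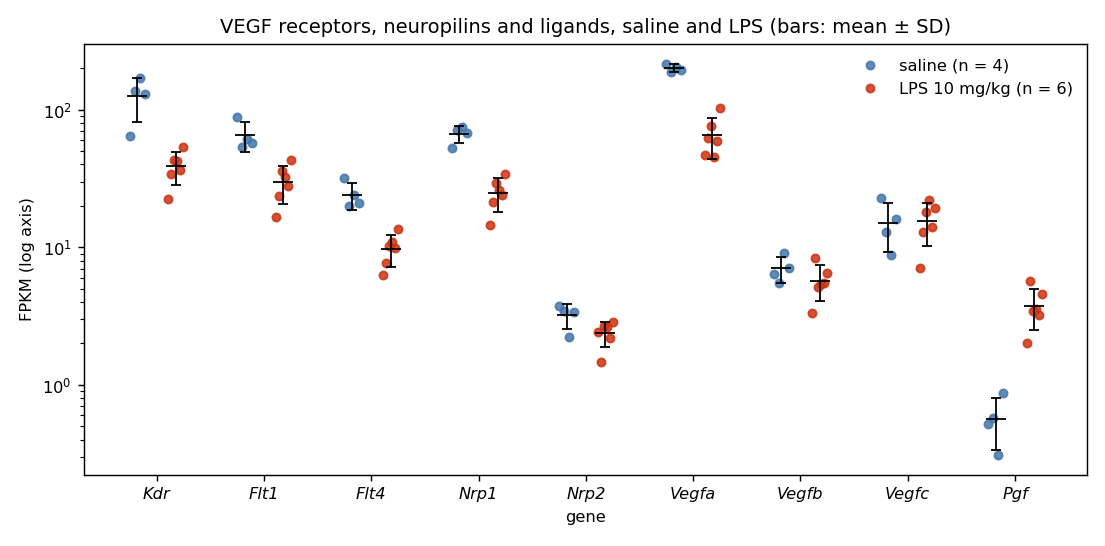
FPKM of the 9 genes in each saline (blue, n = 4) and LPS (red, n = 6) library on a log axis, with the mean and SD of each group in black. Kdr, Flt1, Flt4, Nrp1 and Vegfa are lower in every LPS library than in any saline library, Pgf is higher in every LPS library, and Nrp2, Vegfb and Vegfc overlap.

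Kdr stood at 64.8, 137, 169 and 131 FPKM in saline libraries 1 to 4 and between 22.6 and 53.6 FPKM in the LPS libraries, with a median of 39.5. Saline library 1 was the lowest of its group and was still above the highest LPS library. The group means were 125 ± 43.6 FPKM (SD, n = 4) and 38.7 ± 10.4 FPKM (n = 6), with a fitted log2 change of -1.63 (SE 0.28, adjusted p = 0.000662 by limma). Flt1 stood at 88.3, 53.3, 61.0 and 57.3 FPKM in the saline libraries and between 16.7 and 43.0 FPKM in the LPS libraries, with a median of 30.1. For Flt1, saline library 1 was the highest of its group, the opposite of its place for Kdr. Its means were 65.0 ± 15.9 and 29.9 ± 9.31 FPKM, with a fitted log2 change of -1.13 (SE 0.24, adjusted p = 0.00263 by limma). Without saline library 1 this was -0.97 with an adjusted p of 0.00766, and without LPS library 1 it was -0.97 with an adjusted p of 0.00276, so that in both cases Flt1 still fell but was no longer called lower.

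Flt4 was the least abundant of the 3 receptors, at 31.8, 19.9, 24.1 and 20.8 FPKM in the saline libraries. The LPS libraries held 6.30 to 13.6 FPKM with a median of 9.98, all below the saline libraries. Flt4 changed by -1.24 on the log2 scale (SE 0.20, limma adjusted p = 0.000401). Flt4 marks lymphatic endothelium as well. The lymphatic list was led by Lyve1, which stood at 236 to 1229 FPKM in saline and 319 to 794 FPKM in LPS libraries. All 4 measured lymphatic genes summed to 239 to 1231 FPKM in saline and 319 to 795 FPKM in LPS libraries. Lyve1 thus made up nearly all of the sum, and the other lymphatic markers were close to absent. Neither of the 2 lymphatic genes that could be tested passed, but 1 rose without saline library 1, and 1 fell without saline library 3, without LPS library 6 or under total-read scaling.

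Nrp1, the neuropilin that pairs with VEGFR2, stood at 52.7, 71.3, 74.7 and 67.6 FPKM in the saline libraries. In the LPS libraries it ranged from 14.5 to 34.3 FPKM with a median of 25.1, and the groups did not overlap. The log2 fold change was -1.42 (SE 0.21, limma adjusted p = 0.000255). Nrp2, the neuropilin better known for VEGF-C and semaphorin 3F, was far scarcer, at 3.77, 3.43, 2.25 and 3.37 FPKM in the saline libraries. The LPS libraries ranged from 1.48 to 2.88 FPKM, and only 2 of 6 lay below all saline libraries. The difference of -0.31 on the log2 scale had an adjusted p of 0.106 by limma. It became -0.46 with an adjusted p of 0.0375 when libraries were scaled on their total reads, and -0.44 with an adjusted p of 0.0362 without saline library 3.

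Vegfa was the most abundant member in all 4 groups. It stood at 216, 187, 204 and 194 FPKM in the saline libraries and at 46.5, 61.9, 75.8, 45.2, 59.3 and 103 FPKM in the LPS libraries. The saline libraries lay close together and the LPS libraries spread more widely, with LPS library 6 the highest. The means of 200.3 ± 12.7 and 65.3 ± 21.7 FPKM gave a fitted log2 change of -1.66 (SE 0.21, adjusted p = 0.000108 by limma).

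Pgf, which encodes placental growth factor, a ligand of VEGFR1 and not of VEGFR2, moved in the other direction. It was the scarcest member in the saline group, at 0.521, 0.576, 0.309 and 0.875 FPKM, which rest on 16 to 50 reads per library. In the LPS libraries it stood at 2.02, 5.69, 3.44, 3.54, 3.22 and 4.58 FPKM on 108 to 268 reads, each above every saline library. The fitted log2 fold change was 1.57 (SE 0.20, limma adjusted p = 0.000102). The pseudocount of 1 FPKM compresses the change of a gene this low, and limma-voom on the read numbers gave 2.69.

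Vegfb, the VEGFR1 ligand that is known for its part in muscle and fat, ranged from 5.46 to 9.11 FPKM in saline and from 3.35 to 8.33 FPKM in LPS libraries. Its log2 fold change was -0.27 (limma adjusted p = 0.264). Vegfc, the main lymphangiogenic ligand, stood at 22.8, 12.8, 8.76 and 16.1 FPKM in saline libraries and from 7.08 to 22.0 FPKM in LPS libraries. The groups overlapped and the log2 fold change was 0.04 (95% interval -0.63 to 0.71, limma adjusted p = 0.926). Vegfd, the other VEGFR3 ligand, is not among the 9 genes and ranged from 3.40 to 7.01 FPKM in saline and from 2.08 to 4.43 FPKM in LPS libraries, and fell by 0.60 on the log2 scale (adjusted p = 0.0230 by limma) with overlapping groups.

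By level, the saline group ran from Vegfa through Kdr, Nrp1, Flt1, Flt4, Vegfc, Vegfb and Nrp2 to Pgf. Nrp1 and Flt1 were not separated by their means and SD, and neither were Flt4 and Vegfc, while all other neighbours were. Vegfc nevertheless stood above Vegfb in only 3 of 4 saline libraries, with 8.76 against 9.11 FPKM in saline library 3. In the LPS group all neighbours in the order overlapped by the same measure. There Vegfc stood above Flt4 in 6 of 6 libraries, whereas Flt4 stood above Vegfc in 4 of 4 saline libraries. Pgf stood above Nrp2 in 5 of 6 LPS libraries and below it in all saline libraries.

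The share between paired members was followed as a ratio of FPKM within a library, which does not depend on how libraries are scaled. Over Pgf, Vegfa stood 221-fold to 663-fold higher in saline libraries and 10.9-fold to 23.0-fold higher in LPS libraries. The log2 ratio fell from 8.55 ± 0.663 to 4.13 ± 0.466, a difference of -4.42 (exact permutation test, two-sided, p = 0.00952, or 0.0286 after adjustment over 3 ratios). With 4 and 6 libraries no lower p is possible. Without saline library 2, 3 or 4 the difference stayed between -4.67 and -4.14 with the groups apart, and the exact permutation p was 0.0238, the lowest that 3 and 6 libraries allow, or 0.0714 after adjustment.

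The log2 ratio of Nrp2 to Nrp1 was -4.39 ± 0.512 in saline and -3.37 ± 0.427 in LPS libraries. The difference of 1.02 had a two-sided exact permutation p of 0.0190 (adjusted 0.0286), and the groups overlapped. Without saline library 2, 3 or 4 the difference was 0.80 to 1.04 and the exact permutation p 0.0476, or 0.0714 after adjustment. Flt1 over Kdr, decoy over signalling receptor, was 1.36 in saline library 1 and 0.390, 0.362 and 0.438 in the other saline libraries, against 0.691 to 0.833 in the LPS libraries. On the log2 scale the groups differed by 0.50 (two-sided exact permutation p = 0.181, adjusted 0.181). Without saline library 1 the difference was 0.95 with an exact permutation p of 0.0238 and no overlap, so this ratio turned on that library.

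**Figure D2:**
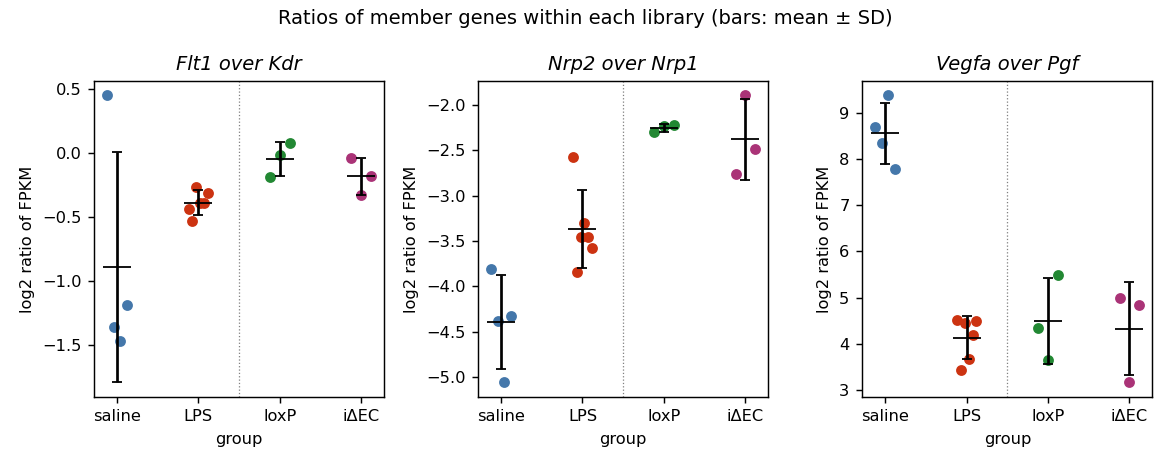
Log2 ratio of FPKM of 3 gene pairs in each library, by group, with the mean and SD in black. The dotted line parts the 2 experiments, which were normalized and tested separately. Vegfa over Pgf lies between 7.79 and 9.37 in saline and between 3.44 and 4.52 in LPS libraries, and saline library 1 stands apart at 0.45 for Flt1 over Kdr.

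Markers of other cells moved with the LPS group. All 10 endothelial markers were read in every library, led by Cldn5. Of these 10, 5 fell and 0 rose, with a median log2 fold change of -0.54 against 0.01 over all genes tested. The count of 5 became 3 without saline library 1 or saline library 3, and 9 under quantile normalization (median -1.10). Their summed level was 3018 to 5303 FPKM in saline and 1441 to 3454 FPKM in LPS libraries. Of the aerocyte markers, the alveolar capillary type known for high Kdr, 5 of 6 fell (median -1.46, sum 359 to 633 FPKM in saline and 70.7 to 223 FPKM in LPS libraries, led by Car4). Of the general capillary markers, led by Plvap, 2 of 5 fell with a median of -0.62, and 4 of 5 under total-read or quantile scaling. Arterial markers fell in 5 of 6 cases (median -1.22) and venous markers in 3 of 4 (median -0.87), the latter in 1 of 4 under endothelial scaling. The shares that fell were 50% (endothelial), 83.3% (aerocyte and arterial), 40% (general capillary) and 75% (venous), beside 23.7% of all genes. Under total-read, quantile and endothelial scaling, 4670 of 14944, 4295 of 14893 and 1091 of 14987 of all genes fell.

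Leukocyte markers rose in 6 of 6 cases, with a summed level of 66.0 to 229 FPKM in saline and 632 to 1534 FPKM in LPS libraries, led by Coro1a. Macrophage markers rose in 7 of 8 cases (led by Lyz2, median 4.21) and neutrophil markers in 6 of 7 (led by S100a9, median 2.54). Of all genes, 29.5% rose. The alveolar type 1 epithelial list, a known source of VEGF-A, fell in 2 of 4 cases (median -0.71, led by Hopx), which is 50% beside 23.7% of all genes. The count was 1 of 4 without saline library 1 or 3 or without LPS library 1, 3, 5 or 6. Its sum was 124 to 302 FPKM in saline and 63.3 to 181 FPKM in LPS libraries. The airway and alveolar type 2 list, led by Sftpc at 799 to 1971 FPKM in saline and 96.1 to 407 FPKM in LPS libraries, fell in 2 of 8 cases, which is 25% beside 23.7% of all genes, and in 1 of 8 without saline library 1, 2 or 3 or without LPS library 1, 3, 5 or 6. Under total-read or quantile scaling, 3 of 4 type 1 and 3 of 8 type 2 list genes fell, and under endothelial scaling 1 of each. Of all genes, 4670 of 14944, 4295 of 14893 and 1091 of 14987 fell under these 3 scalings. Among the LPS libraries, library 1 had the lowest endothelial sum and the highest leukocyte sum and was the lowest of its group for Kdr, Flt1, Flt4, Nrp1, Vegfb, Vegfc and Pgf. LPS library 6 had the lowest leukocyte sum and was the highest for Kdr, Flt1, Flt4, Nrp1, Nrp2 and Vegfa. LPS library 2 had the highest endothelial sum (3454 FPKM), and only LPS library 1 was lower for Kdr, Flt1, Flt4 and Nrp1. Library 2 was also the lowest for Nrp2 and the highest for Vegfb and Pgf. LPS library 4, with an endothelial sum of 3418 FPKM, was the lowest for Vegfa and the highest for Vegfc. The part of these cell types in the changes of the 9 genes was not tested.

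**Figure D3:**
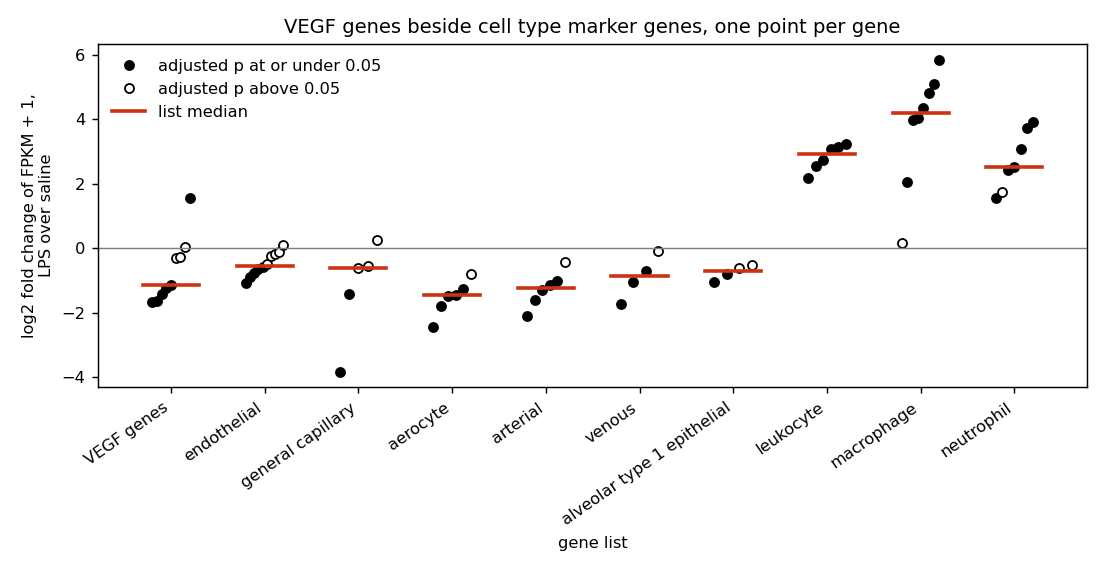
Log2 fold change in the LPS group over the saline group for each tested gene of the 9 VEGF genes and of 9 marker lists, with filled points for genes that passed the test and a red line at each list's median. The median of the VEGF genes is -1.13, that of the endothelial list -0.54, that of the aerocyte list -1.46 and that of the leukocyte list 2.92.

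When libraries were scaled on the endothelial list, so that a change is one relative to those 10 markers, the median of all genes moved to 0.39 and the same 5 members still fell. On this scale 7.28% of all genes fell and 38% rose. The log2 fold changes were -1.15 for Kdr (limma adjusted p = 0.00429), -1.18 for Vegfa (0.00170), -0.94 for Nrp1 (0.00376), -0.78 for Flt4 (0.00661) and -0.65 for Flt1 (0.0258). Of these, 2 members, Kdr and Vegfa, were still called lower. Pgf rose by 1.80 (limma adjusted p = 1.11e-05). Nrp2 was at 0.05, Vegfb at 0.14 and Vegfc at 0.49, and none of these passed the test. Kdr and Flt1 overlapped between the groups on this scale, while Flt4, Nrp1 and Vegfa did not. Of all 14987 genes tested on this scale, 712 had every LPS library below every saline library and 5139 had every one above. Of the aerocyte markers 5 of 6 (median -0.99) and of the arterial markers 5 of 6 (median -0.78) fell on the same scale.

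**Figure D4:**
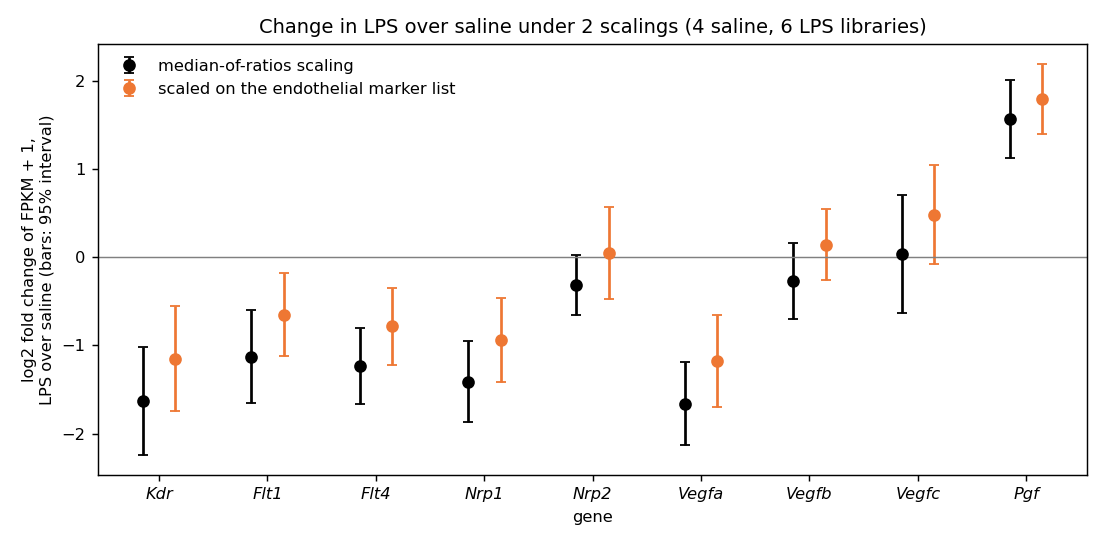
Log2 fold change of FPKM + 1 in the LPS group over the saline group for the 9 genes, with 95% intervals, under median-of-ratios scaling (black) and under scaling on 10 endothelial markers (orange). The intervals of Kdr, Flt1, Flt4, Nrp1 and Vegfa lie below 0 and that of Pgf above 0 under both scalings.

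Of 37 tested genes of VEGF receptor signalling, 11 rose and 11 fell, or 29.7% in each direction, beside 29.5% and 23.7% of all genes. Those with the largest falls were Plcg1, the phospholipase that docks to VEGFR2 (49.7 ± 2.68 to 17.7 ± 3.30 FPKM, log2 fold change -1.46, limma adjusted p = 1.86e-05), Prkd1, which encodes protein kinase D1 (7.45 ± 1.89 to 3.18 ± 0.598 FPKM), and the adaptor Nck2 (14.4 ± 0.961 to 6.81 ± 1.40 FPKM). Those with the largest rises were Mapkapk2, a kinase below p38 (37.3 ± 10.9 to 171.6 ± 48.4 FPKM, 2.16), Prkcb (protein kinase C beta, 1.63) and Map2k1 (the kinase MEK1, 1.11). All 6 kept their direction and passed the test under the other scalings (total reads, quantile and endothelial list). The counts became 8 and 15 under quantile and 13 and 4 under endothelial scaling. Of all 14893 genes under quantile scaling, 3570 rose and 4295 fell, and under endothelial scaling 38% rose and 7.28% fell.

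Of 12 phosphatase and turnover genes, 8 rose (66.7%, beside 29.5% of all genes) and 3 fell (25%, beside 23.7%). Ptprb encodes VE-PTP, the endothelial receptor phosphatase, and fell from 264 ± 24.3 to 90.5 ± 37.0 FPKM (-1.62, limma adjusted p = 0.000509). Epn2, an endocytic adaptor, fell by 1.26 and Rab4a, a recycling GTPase, by 0.66 on the log2 scale. Ptpn6 (SHP-1), a phosphatase known mainly from leukocytes, rose from 13.0 ± 5.38 to 188 ± 61.2 FPKM (3.77), with Ptpn1 (PTP1B, 2.57) and Ptprj (CD148, 1.96). Rab4a did not pass the test under the endothelial scaling (adjusted p = 0.177 by limma). Of the 12 genes, 5 rose under total-read, 4 under quantile and 9 under endothelial scaling. Of all genes, 3463 of 14944, 3570 of 14893 and 5692 of 14987 rose under these scalings. The share of this list that rose thus depended on the scaling.

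Of 15 transcripts known to be induced by VEGF, 7 rose and 4 fell, and 2 fell without saline library 4. Nr4a1 (3.80), the phosphatase gene Dusp5 (3.03) and Egr3 (1.65), all immediate early or feedback genes, rose the most, and Nr4a1 went from 13.2 ± 9.12 to 183.5 ± 74.4 FPKM. The genes with the largest falls were Esm1 (-1.94), which encodes endocan and is a tip cell gene, the Notch ligand Dll4 (-1.22) and Nr4a2 (-0.95). Under the endothelial scaling Esm1 still fell, as the only gene of the list that did, whereas Dll4 (adjusted p = 0.114 by limma) and Nr4a2 (0.0937) did not pass. Nr4a2 passed in 2 of 4 scalings overall. Egr2, 1 of the 7 that rose, passed the filter on low values only through the LPS group (0.405 FPKM in saline and 1.90 FPKM in LPS libraries). For that reason no share is drawn from this list.

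Of 17 hypoxia factors and targets, 7 rose and 1 fell. The glycolytic genes Pgk1 (2.35) and Ldha (2.12) and the HIF target Ankrd37 (2.23) rose the most. Epas1, which encodes HIF-2α, was the 1 that fell, from 1300 ± 79.0 to 598 ± 165 FPKM (-1.17, limma adjusted p = 0.00243). Egln3 and Car9, 2 of the 7 that rose, passed the filter on low values only through the LPS group (0.231 and 0.0489 FPKM in saline libraries). For that reason no share is drawn from this list. The number that rose was 11 of 16 without saline library 1 and 10 of 17 under endothelial scaling, and the number that fell was 3 under total-read and quantile scaling and 2 without saline library 4.

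The list of VEGF-C and VEGF-D processing and neuropilin ligands had 10 genes, of which the ligand gene Vegfd and 5 semaphorins passed the filter on low values. The processing genes of the list did not, so the list gave no value on processing. Vegfd and the semaphorins Sema3c (-0.88) and Sema3b (-0.71) fell, and Sema3g (-0.47) and Sema3f (-0.13) did not pass. Sema3e (-0.65) also passed, but it entered the test only through the saline group, at 1.08 ± 0.735 FPKM against 0.269 ± 0.0839 FPKM in the LPS group, and no share is drawn from this list. None of the 6 passed under the endothelial scaling, and 2 fell without saline library 4. Of 8 plexin and integrin partners, 3 rose and 3 fell, or 37.5% in each direction, beside 29.5% and 23.7% of all genes. The semaphorin receptors Plxna1 (-1.23), Plxnd1 (-0.84) and Plxna4 (-0.73) fell, and the integrin subunits Itgb3 (1.79) and Itgav (0.75) and the neuropilin adaptor Gipc1 (0.54) rose. The 3 plexins did not pass under the endothelial scaling, and Gipc1 passed under that scaling but in 2 of 4 scalings overall.

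Across all 16 libraries, each gene's deviation from its group mean was compared with those of the 9 members over 14192 genes. Points of this kind share library, depth and cell composition, so the correlations are descriptions. Flt1 ran most closely with Fgd5 (Pearson r = 0.982), Ntn1 (0.980) and Pitpnm2 (0.970). Kdr ran with Sox7 (0.952), Rasgrp3 (0.946) and Pcdh1 (0.943), Flt4 with Col4a1 (0.951), Trib2 (0.951) and Lrrc8c (0.950), and Nrp1 with Pxdn (0.962), Spns2 (0.957) and Cul7 (0.954). Vegfc ran with Vwf (0.932), which encodes von Willebrand factor, and with Ptprr (0.905) and Slc6a2 (0.898). The nearest genes of Vegfa were Ccdc157 (0.917), Arl15 (0.887) and Agrn (0.880), those of Vegfb Slc35a1 (0.881), Gkap1 (0.868) and Tmem70 (0.868), those of Nrp2 Ahdc1 (0.897), Ubap2 (0.895) and Herc2 (0.889), and those of Pgf 3010003L21Rik (0.900), Snora78 (0.898) and Saa1 (0.876).

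Among the members, Flt1 and Flt4 moved together over the 16 libraries (r = 0.918), as did Kdr and Nrp1 (0.875) and Flt1 and Vegfc (0.863). Kdr and Flt1 had an r of 0.406, which became 0.806 without saline library 1. Pgf had its closest member in Vegfb (0.546) and an r between -0.194 and 0.008 with the other 7.

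The experiment on endothelial Fgfr1 asked what its loss changes in ECs under LPS. Fgfr1 itself stood at 2.90, 2.91 and 2.59 FPKM in Fgfr1 loxP/loxP libraries 1 to 3 and at 0.683, 1.41 and 1.15 FPKM in Fgfr1 iΔEC/iΔEC libraries 1 to 3. All Fgfr1 iΔEC/iΔEC libraries were lower, in the direction of their labels, but the adjusted p by limma over 14945 genes was 0.962. None of the 9 VEGF genes passed the test, and all 9 overlapped between the groups under median-of-ratios scaling. The background was also 0% of genes (0 of 14945 by limma, with 661 at an unadjusted p under 0.05, and 0 by limma-voom), while the groups lay apart in either direction for 10.1%. At 3 against 3 libraries an exact permutation test cannot go below 0.1. The differences, intervals and tests of this experiment did not pair the libraries, except where a block or pairs are named.

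**Figure D5:**
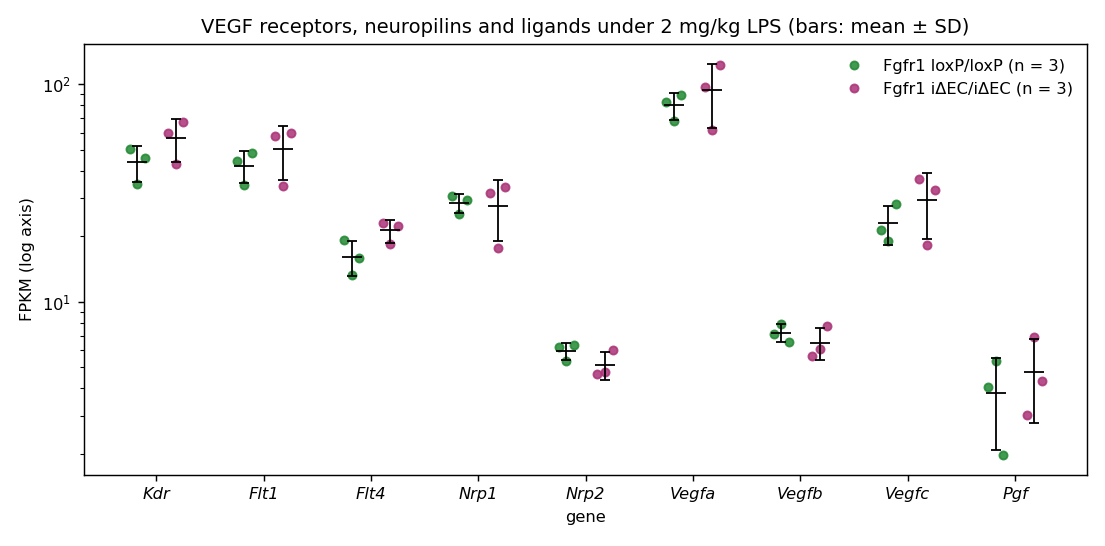
FPKM of the 9 genes in each Fgfr1 loxP/loxP (green, n = 3) and Fgfr1 iΔEC/iΔEC (purple, n = 3) library on a log axis, with the mean and SD of each group in black, all mice having received 2 mg/kg LPS. The FPKM values of the 2 groups overlap for each of the 9 genes.

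Kdr stood at 50.5, 34.8 and 46.0 FPKM in Fgfr1 loxP/loxP libraries and at 59.5, 42.8 and 67.4 FPKM in Fgfr1 iΔEC/iΔEC libraries, a log2 difference of 0.35 (95% interval -0.16 to 0.86). Flt1 stood at 44.3, 34.3 and 48.3 FPKM and at 57.7, 34.1 and 59.5 FPKM, a difference of 0.22 (-0.37 to 0.81). Flt4 stood at 19.2, 13.2 and 15.9 FPKM and at 23.1, 18.4 and 22.4 FPKM. The Flt4 difference of 0.39 (0.01 to 0.77) had an adjusted p of 0.962 by limma, and of 0.580 with the library number as a block. Between libraries of the same number, Flt4 and Kdr were higher in the Fgfr1 iΔEC/iΔEC library in 3 of 3 pairs and Nrp2 lower in 3 of 3, while the other 6 members were of mixed sign. The endothelial markers as a list had a median of 0.29 in the same comparison, with 0 of 10 past the test. The marker lists with the largest medians in size were airway and alveolar type 2 (-0.76), alveolar type 1 (-0.52) and neutrophil (-0.50), also with 0 genes past the test. Their part in the differences of the 9 genes was not tested. Under the endothelial scaling Kdr was at 0.10, Flt1 at -0.04 and Flt4 at 0.14. On that scale Nrp2 was at -0.40 (95% interval -0.84 to 0.03), with all Fgfr1 iΔEC/iΔEC libraries below the Fgfr1 loxP/loxP libraries, Nrp1 at -0.34 and Vegfb at -0.36. Of all 15008 genes tested on that scale, 1477 lay apart in the direction of Nrp2 and 77 in the other. Vegfa was at -0.07, Vegfc at 0.04 and Pgf at 0.08, and none of the 9 passed the test.

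Nrp1 stood at 30.5, 25.3 and 29.5 FPKM in Fgfr1 loxP/loxP and at 31.7, 17.7 and 33.7 FPKM in Fgfr1 iΔEC/iΔEC libraries (log2 difference -0.09, 95% interval -0.67 to 0.50). Nrp2 stood at 6.17, 5.35 and 6.31 FPKM and at 4.67, 4.74 and 6.00 FPKM (-0.18, -0.48 to 0.11). Both of these intervals include 0. Vegfa stood at 83.1, 67.6 and 89.2 FPKM and at 96.9, 61.9 and 123 FPKM (0.18, -0.44 to 0.81). Pgf stood at 4.07, 5.35 and 1.97 FPKM and at 3.03, 6.90 and 4.32 FPKM (0.27, -0.55 to 1.10). Vegfb had a log2 difference of -0.14 (-0.46 to 0.19) and Vegfc one of 0.30 (-0.37 to 0.96). The intervals of Kdr, Flt1, Nrp1, Vegfa, Vegfb, Vegfc, Nrp2 and Pgf include 0, and they leave room for changes of the sizes they span.

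Library 2 of each genotype was the lowest of its group for Kdr, Flt1, Flt4, Nrp1, Vegfa and Vegfc and the highest for Pgf. It had the highest leukocyte sum of its group (611 FPKM in Fgfr1 loxP/loxP and 677 FPKM in Fgfr1 iΔEC/iΔEC mice). In Fgfr1 iΔEC/iΔEC mice it also had the highest macrophage and neutrophil sums and the lowest endothelial sum. In Fgfr1 loxP/loxP mice library 3 held these places (2805, 2594 and 2323 FPKM), and it was the highest for Flt1, Vegfa and Vegfc. The part of these cell types was not tested. The ratios Flt1 over Kdr (log2 difference -0.14, two-sided exact permutation p = 0.3), Nrp2 over Nrp1 (-0.13, p = 0.7) and Vegfa over Pgf (-0.17, p = 0.8) did not pass an exact permutation test, with an adjusted p of 0.8 for each. No gene of the 6 pathway lists passed either.

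Set side by side, with the reservation that the tables were normalized separately and that dose and genotype differ, the Fgfr1 loxP/loxP mice held 43.8 ± 8.09 FPKM of Kdr, 80.0 ± 11.1 of Vegfa and 3.80 ± 1.70 of Pgf (n = 3). The LPS group of WT mice held 38.7 ± 10.4, 65.3 ± 21.7 and 3.75 ± 1.25 FPKM and the saline group 125 ± 43.6, 200.3 ± 12.7 and 0.570 ± 0.234 FPKM of the same genes. Nrp2 stood at 5.95 ± 0.519 FPKM in Fgfr1 loxP/loxP mice and at 3.20 ± 0.662 and 2.38 ± 0.501 FPKM in the saline and LPS groups. No test was made between the tables.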

How the data were processed

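Bulk RNA-seq of 16 libraries was used. The authors aligned reads to GRCm38 (mm10) with HISAT2 2.0.5, counted them with featureCounts 1.5.0-p3, tested counts with DESeq2 and deposited FPKM for 54532 genes per table. Strandedness, trimming and annotation release were not given in the sources used here. FPKM and gene length gave back whole reads for 100% of the nonzero values checked (tolerance 0.1 read). Values with high read numbers, among them all those of Kdr, Flt1, Nrp1 and Vegfa, were outside this check. Libraries were rescaled (median of ratios), genes under a mean of 0.5 FPKM were left out, and limma 3.58.1 (R 4.3.3, lmFit, eBayes with trend) was run on log2(FPKM + 1). Such fold changes understate the change of low genes. For ratios, exact permutation tests (two-sided) were used. Python 3.11.15, pandas 2.3.3, scipy 1.17.1 and matplotlib 3.10.9 were used. Scripts were tested on simulated data. Reads are not independent molecules, so the reads behind a value cover counting error only.

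The 9 members and the marker and pathway lists were chosen with earlier results of these data known. The text names all members, Fgfr1, the 3 genes with the largest rise and fall of each pathway list and the 3 genes most like each member. It also names the most abundant gene of the marker lists other than arterial, venous, lymphocyte, mural, fibroblast, erythroid and platelet. Vegfd, outside this rule, was named after its values were seen. Sema3g, Sema3f, Egr2, Egln3 and Car9 also lie outside it, as do the genes that overlap Nrp1 and Nrp2. Alternatives were other pseudocounts, filters and scalings, voom, a replicate block and leaving out each library. The other marker lists gave, in LPS over saline, 3 of 5 lymphocyte, 2 of 7 mural and 3 of 5 fibroblast genes that fell, beside 23.7% of all genes. They gave 2 of 2 erythroid and 3 of 4 platelet genes that rose, beside 29.5% of all genes. On leaving out each library in turn, the lymphocyte count ranged from 1 to 3, the mural from 2 to 3 and the fibroblast from 1 to 4.

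Fgfr1 loxP/loxP and Fgfr1 iΔEC/iΔEC libraries with the same number in their labels deviated together from their group means (correlations 0.248, 0.178 and 0.187), and the numbers were taken to pair them. The replicate block for these pairs changed no call of a member.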

Additional observations from a re-analysis of the deposited data

Results flagged for a closer look

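The log2 ratio of Flt1 to Kdr in saline library 1 was 0.45, far above the nearest saline library at -1.19, while the lowest stood at -1.47. The gap was 0.855 of the range of the 4 saline libraries. It was the only far library among 24 groups of 4 or 6 libraries examined, and chance alone gives about 1 in 20 groups. The same library had the highest endothelial sum (5303 FPKM) and neutrophil sum (1363 FPKM) of its group. What sets it apart was not tested.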

How the results depend on the processing

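Over all genes, 1768 were called higher and 1011 lower in LPS over saline. Under total-read scaling this split was 1375 to 1443 and under quantile normalization 1366 to 1326. Scaling on the endothelial list gave 3328 and 349, and left 2 members called lower. Calls on the adjusted p alone, without a fold limit, were 4399 and 3529. A pseudocount of 0.1 gave 2331 higher and 1840 lower, and limma-voom 2355 and 2008. These scalings moved the median of all genes to -0.14 (total reads), -0.08 (quantile) and 0.39 (endothelial list). Kdr, Flt1, Flt4, Nrp1 and Vegfa fell and Pgf rose under all alternatives run. Under other settings Nrp2 was at -0.46 (total reads, past the threshold) and 0.0507 (endothelial), Vegfb at 0.14 (endothelial), and Vegfc at -0.15 (total reads), -0.21 (quantile) and -0.0374 (replicate block). In Fgfr1 iΔEC/iΔEC over loxP/loxP, endothelial scaling gave -0.0367 for Flt1 and -0.0742 for Vegfa. The causes of these changes were not tested.

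Leaving out each library in turn gave, in LPS over saline, -0.44 to -0.22 for Nrp2, -0.37 to -0.15 for Vegfb, -0.19 to 0.25 for Vegfc, 0.31 to 0.95 for Flt1 over Kdr, 0.80 to 1.22 for Nrp2 over Nrp1 and -4.67 to -4.14 for Vegfa over Pgf. In Fgfr1 iΔEC/iΔEC over loxP/loxP it gave -0.25 to 0.20 for Nrp1, -0.0336 to 0.45 for Vegfa, -0.0346 to 0.51 for Pgf, -0.59 to 0.41 for Vegfa over Pgf and -0.37 to 0.062 for Nrp2 over Nrp1. The ranges that kept their sign were 0.20 to 0.54 for Kdr, 0.07 to 0.47 for Flt1, 0.26 to 0.52 for Flt4 and 0.11 to 0.59 for Vegfc. So did those of -0.28 to -0.13 for Nrp2, -0.25 to -0.05 for Vegfb and -0.21 to -0.06 for Flt1 over Kdr.

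Saline and LPS libraries with the same number had correlations of 0.0972, -0.162, -0.209 and -0.117, so they share only a number. A replicate block there gave 1925 genes called higher and 1063 lower and changed no call of a member. Of 566 values recomputed under a setting, 532 kept their direction and side of the threshold, or stayed close for counts and plain values, 18 changed sign, 7 moved, 6 lost the threshold and 3 gained it. Depth limits Pgf most, at 16 reads in saline library 3.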
